A study of Homo sapiens with 6 samples.

Results

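Chromosome 22 carried 628 of the 12579 γH2AX peaks listed for drug-treated DLD1 cells, and these 628 peaks, taken by their chromosome alone, are described here by their position along the long arm. γH2AX, the histone variant H2AX in its phosphorylated state, was mapped by chromatin immunoprecipitation and sequencing (ChIP-seq) with an Abcam antibody. DLD1 is an established human colorectal cancer line, used here as a UNG knockout (KO, UNG-/-) or as wild type (WT, UNG+/+), each treated with pemetrexed or with cisplatin. There was 1 library for each group, and the untreated KO and WT libraries of the study were not analysed here. On chromosome 22 the KO pemetrexed list held 352 of its 5278 peaks, the WT pemetrexed list 23 of 924, the KO cisplatin list 197 of 4570 and the WT cisplatin list 56 of 1807. Doses, times of treatment and whether the KO line was 1 clone are not stated in the labels used here. A peak list holds no measure of the UNG protein or transcript, so the genotypes are as labelled.

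UNG is the uracil DNA glycosylase that cuts uracil out of DNA and so starts base excision repair. Pemetrexed is an antifolate that blocks the making of thymidylate, which leads to uracil being built into DNA, while cisplatin forms platinum crosslinks between bases. H2AX is phosphorylated by the kinases that answer to broken or stalled DNA, and the mark is known to spread from a break into the chromatin on either side, so that a single marked domain can be listed as several neighbouring peaks. Chromosome 22 is a small acrocentric chromosome. Its short arm holds repeats and ribosomal RNA gene arrays that genome assemblies of that time leave out, and its long arm is rich in genes and in G and C bases. Near the centromere the long arm carries large repeated blocks and the immunoglobulin lambda light chain genes.

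The peaks covered the long arm from 15232115 to 49399063 (hg18), a span of 34.2 Mb that makes up 1.21% of the span covered on all chromosomes. On this 1.21% of the span lay 6.67% of the KO pemetrexed peaks (95% exact binomial interval 6.01 to 7.38%), 2.49% of the WT pemetrexed peaks (1.58 to 3.71%), 4.31% of the KO cisplatin peaks (3.74 to 4.94%) and 3.10% of the WT cisplatin peaks (2.35 to 4.01%). Each interval lay above the share of the span, in both genotypes and after both drugs. Intervals here cover counting error only. They treat neighbouring peaks as independent, which makes them too narrow, and there is no replicate library to give the spread between experiments.

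Per megabase of span, chromosome 22 held 10.3 KO pemetrexed peaks, 0.673 WT pemetrexed peaks, 5.77 KO cisplatin peaks and 1.64 WT cisplatin peaks. Among the 24 chromosomes it ranked second for KO pemetrexed, below chromosome 19 with 11.8 peaks per Mb. It ranked first for WT pemetrexed and for KO cisplatin, and its rank was 3 for WT cisplatin, below chromosomes 19 and 17. The median chromosome had 1.43, 0.321, 1.51 and 0.614 peaks per Mb in the same order of lists. The spans of most other chromosomes include a centromere, which lowers their densities, while that of chromosome 22 is long arm alone.

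**Figure D1:**
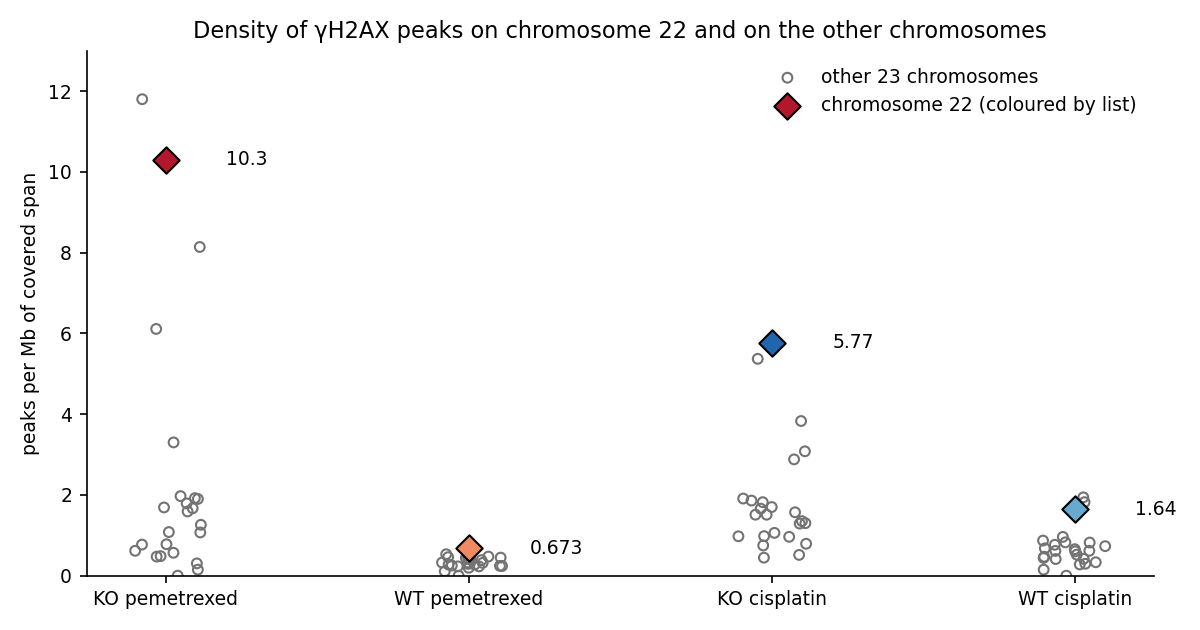
Peaks per Mb of covered span (vertical axis) in the KO pemetrexed, WT pemetrexed, KO cisplatin and WT cisplatin lists; the diamond is chromosome 22 and each open circle is 1 of the other 23 chromosomes. The chromosome 22 values of 10.3, 0.673, 5.77 and 1.64 lie at or near the top of each list.

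The first comparison set UNG KO against WT cells after pemetrexed. On chromosome 22 the KO pemetrexed list held 352 peaks and the WT pemetrexed list 23, a ratio of 15.3 (95% exact interval 10 to 24.5). On the other chromosomes together the same ratio was 5.47 (5.09 to 5.88), so that the excess on chromosome 22 was 2.80 times that elsewhere (95% exact interval of the odds ratio 1.82 to 4.50). The ratio was 12 on chromosome 16, 17.8 on chromosome 17 and 25 on chromosome 19. It was 4.50 (2.59 to 8.29) on chromosome 21, the other small acrocentric chromosome. KO pemetrexed peaks covered 629.9 kb of chromosome 22, or 1.84% of its span, against 13.8 kb or 0.0402% for WT pemetrexed peaks, a ratio of 45.8. The count ratio was 2.95 (56 KO against 19 WT regions) when peaks of a list within 100 kb of each other were joined. With peaks of at least 600 bp alone it was 38.6 (347 KO against 9 WT peaks), and the ratio of covered bases was 102. That cut lies just above the WT pemetrexed median width of 593 bp and well below the KO pemetrexed median of 1185 bp. It removed most WT pemetrexed peaks and few KO pemetrexed peaks.

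After cisplatin the KO list was again the longer one on chromosome 22. It held 197 peaks against 56 in the WT cisplatin list, a ratio of 3.52 (95% exact interval 2.60 to 4.82), and 2.50 (2.36 to 2.64) on the other chromosomes together. With peaks within 100 kb joined the ratio on chromosome 22 was 1.96 (88 against 45 regions). As listed, the excess on chromosome 22 was 1.41 times that elsewhere (odds ratio interval 1.04 to 1.94). KO cisplatin peaks covered 178 kb of the chromosome and WT cisplatin peaks 39.1 kb, a ratio of 4.54. On chromosome 22 the pemetrexed KO over WT ratio was 4.34 times the cisplatin one (95% exact interval 2.54 to 7.63), and on the other chromosomes together 2.19 times (2.0 to 2.40). It was 3.74 times on chromosome 16, 8.42 times on chromosome 17, 9.01 times on chromosome 19 and 1.79 times on chromosome 21. With peaks within 100 kb joined the factor on chromosome 22 was 1.5, with an interval of 0.770 to 3.01 that includes 1. Restricted to peaks of 600 bp or more, which leaves 9 of 23 WT pemetrexed peaks, it was 7.47 (3.43 to 18.1). All these ratios compare single libraries of unknown read depth.

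The drugs differed in opposite directions in the 2 genotypes. In KO cells chromosome 22 held 1.79 times as many peaks after pemetrexed as after cisplatin (352 against 197, interval 1.5 to 2.14). In WT cells it held 0.411 times as many (23 against 56, interval 0.241 to 0.678). The KO ratio turned to 0.636 when peaks within 100 kb were joined, with 56 pemetrexed against 88 cisplatin regions. With peaks within 10 kb joined it was 1.24, with 219 against 177 regions. Over all chromosomes the ratios also lay on opposite sides of 1, at 1.15 in KO and 0.511 in WT cells, and in KO cells chromosomes 16, 17 and 19 had ratios of 1.98, 2.12 and 2.20.

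Peak width differed more between the lists than between chromosome 22 and the rest of the genome. On chromosome 22 KO pemetrexed peaks had a median width of 1185 bp (interquartile range 924 to 2029), against 593 bp (552 to 653) for WT pemetrexed peaks. The median was 853 bp (720 to 1008) in the KO cisplatin list and 634 bp (582 to 769) in the WT cisplatin list. On the other chromosomes the medians were 1171, 584, 811 and 623 bp in the same order. Peaks of 2 kb or more numbered 89 of 352 KO pemetrexed peaks (25.3%, exact interval 20.8 to 30.2%), and they held 53.7% of the bases that list covered on the chromosome. None of the 23 WT pemetrexed peaks was that wide, which allows a share of up to 13% (3 counts) or 14.8% (exact interval). There was 1 such peak among 197 KO cisplatin peaks. Among 56 WT cisplatin peaks there were 0, which allows up to 5.36% (3 counts) or 6.38% (exact interval). Elsewhere in the KO pemetrexed list 22.5% of peaks were 2 kb or wider, and the odds ratio of chromosome 22 against the rest was 1.17 (0.900 to 1.51), an interval that includes 1.

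**Figure D2:**
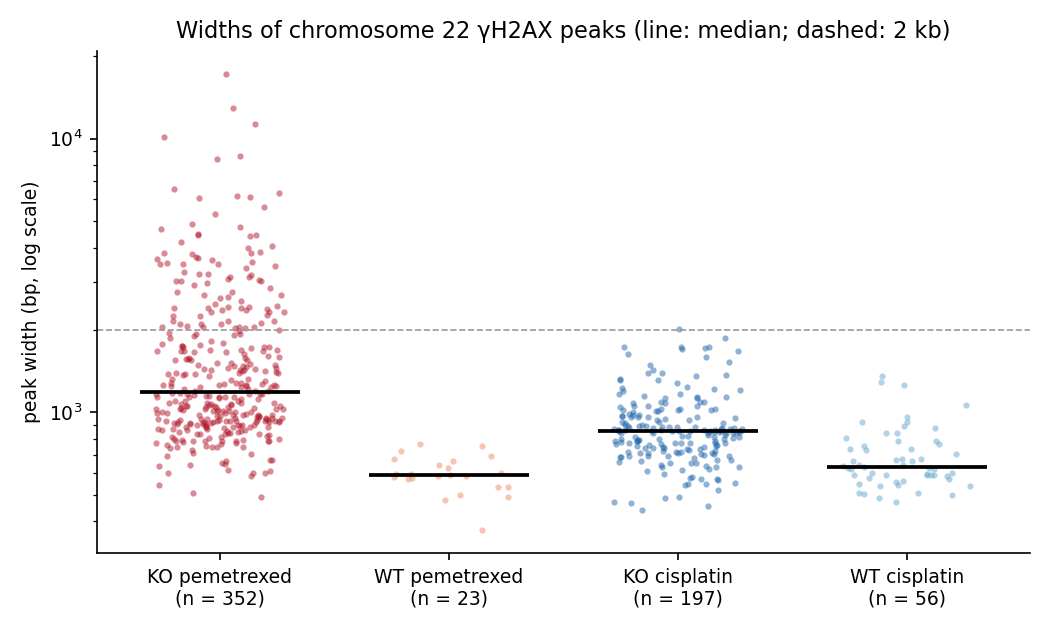
Width in bp (vertical log axis) of each chromosome 22 peak in the 4 lists, with a black line at the median and a dashed line at 2 kb. The 89 peaks above 2 kb in the KO pemetrexed list stand against 0, 1 and 0 in the WT pemetrexed, KO cisplatin and WT cisplatin lists.

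The 5 widest KO pemetrexed peaks lay in the last 5 Mb of the covered span, and none of them met a peak of another list. The widest, at 17262 bp, ran from 44895197 to 44912459. Upstream of it lay peaks of 10120 bp (44736633 to 44746753), 8607 bp (44757507 to 44766114) and 11277 bp (44768816 to 44780093), so that 4 of the 5 widest peaks fell in a single 1 Mb window. The other, of 12896 bp, ran from 49247002 to 49259898 near the end of the arm. Among KO pemetrexed peaks on any chromosome, chromosome 22 held 1 of the 10 widest, 3 of the 20 widest, 6 of the 50 widest and 8 of the 100 widest, beside its 6.67% of the whole list.

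The widest peaks of the other lists were smaller and more scattered. In the WT pemetrexed list they measured 676 to 766 bp, the widest running from 31284113 to 31284879, inside a stretch with no KO pemetrexed peak. The WT pemetrexed peak of 725 bp at 45336683 to 45337408 met a KO pemetrexed peak, and the other four met no peak. The widest KO cisplatin peak, of 2024 bp, lay at 29659305 to 29661329, and the other four of the 5 widest measured 1729 to 1870 bp. The widest WT cisplatin peaks measured 958 to 1360 bp, the widest at 48716224 to 48717584, and none of the 5 met another list.

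Along the arm, peaks were counted by midpoint in 35 windows of 1 Mb, numbered 1 at the centromere side to 35 at the far end. The covered span starts at 15232115 and ends at 49399063, so windows 1 and 35 lie only partly within it. Their counts were not scaled for this. KO pemetrexed peaks occupied 26 windows, WT pemetrexed peaks 19, KO cisplatin peaks 34 and WT cisplatin peaks 24. These are 74.3, 54.3, 97.1 and 68.6% of the windows, where over all chromosomes the lists occupied 24.9, 25.7, 53.7 and 35.1% of windows in the same order. With peaks of at least 600 bp alone, WT pemetrexed peaks occupied 9 windows. KO cisplatin peaks were thus spread over nearly the whole arm, at a median of 5 per window and at most 19. KO pemetrexed peaks ranged from 0 to 33 per window with a median of 8. The 5 fullest windows held 41.5% of the KO pemetrexed peaks (146 of 352) and 34.5% of the KO cisplatin peaks (68 of 197). With as few peaks as the WT lists have, a count of 0 or 1 in a window was the usual value.

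Window 30 (44000001 to 45000000) had the most KO pemetrexed peaks, with 33, against 0 WT pemetrexed peaks. It also held 6 KO cisplatin and 3 WT cisplatin peaks. Its KO pemetrexed peaks covered 108 kb, the largest amount of any window of the chromosome, and 16 of them were 2 kb or wider. Window 21 (35000001 to 36000000) came next with 32 KO pemetrexed peaks against 1 WT pemetrexed peak, and with 10 KO cisplatin peaks against 0 WT cisplatin peaks. Here the KO pemetrexed median width was 2429 bp, and 18 of the 32 peaks were 2 kb or wider.

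Window 22 (36000001 to 37000000) was full in both KO lists. It held 31 KO pemetrexed peaks against 1 WT pemetrexed peak and 19 KO cisplatin peaks against 2 WT cisplatin peaks, the most of any window over the 4 lists. Its KO pemetrexed peaks were narrower than in window 21, with a median of 1064 bp and 42.9 kb covered. Window 27 (41000001 to 42000000) held 26 KO pemetrexed peaks against 0 WT pemetrexed peaks, and 15 KO cisplatin against 5 WT cisplatin peaks. Windows 25 (39000001 to 40000000) and 26 (40000001 to 41000000) held 24 KO pemetrexed peaks each, but 3 and 13 KO cisplatin peaks. Windows 5 and 6, with 11 KO pemetrexed peaks each, had 6 and 7 KO cisplatin peaks.

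**Figure D3:**
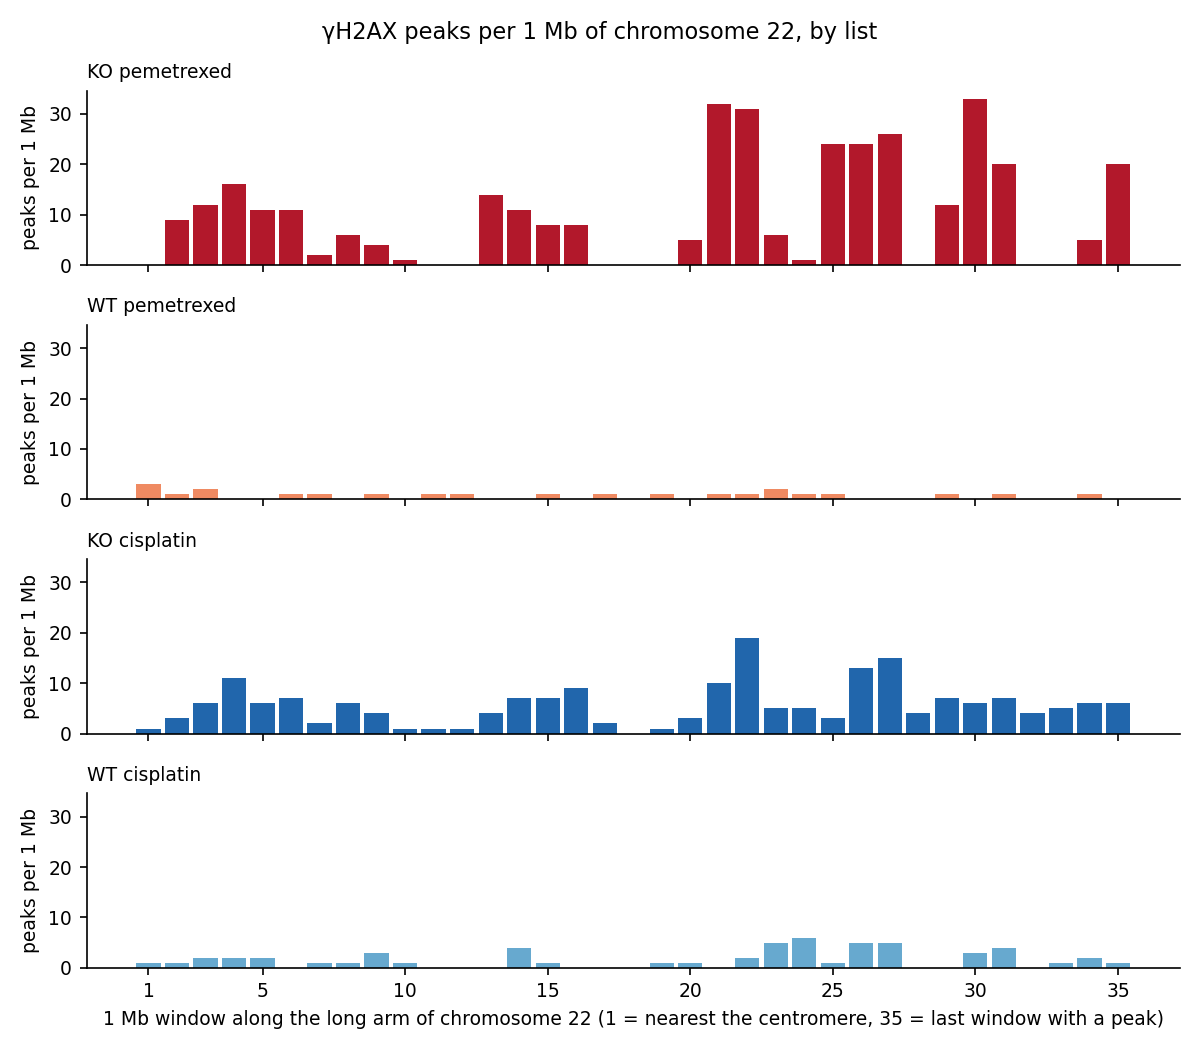
Number of peaks (vertical axis, same scale in each panel) in each 1 Mb window along the long arm (horizontal axis, window 1 nearest the centromere) for the 4 lists. KO pemetrexed peaks gather in windows 21, 22, 25 to 27, 30, 31 and 35 with 20 to 33 each, while KO cisplatin peaks are in all windows but window 18. Windows 1 and 35 lie only partly within the covered span.

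A window was counted as differing where the lists stood at least 5 peaks apart. After pemetrexed KO stood above WT in 20 of the 35 windows (57.1%), where 9.66% of 2847 windows over all chromosomes did, and stood below in 0 (background 0.0351%). After cisplatin KO stood above WT in 11 windows (31.4%, background 6.22%) and below in 0 (background 0%). In KO cells pemetrexed stood above cisplatin in 14 windows (40%, background 5.62%) and below in 1 (2.86%, background 2.28%), window 33. In WT cells pemetrexed stood above in 0 windows (background 0.0351%) and below in 3 (8.57%, background 1.19%). No window of the chromosome held more than 3 WT pemetrexed peaks. KO below WT after pemetrexed, and WT pemetrexed above WT cisplatin, could therefore not reach the limit of 5 there. By any difference, KO stood below WT after pemetrexed in 5 windows, with 0 KO pemetrexed and 7 WT pemetrexed peaks. Windows with many peaks can pass such a limit more easily than windows with few, so a chromosome dense in peaks is bound to hold more of them. These counts describe single libraries.

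KO pemetrexed peaks were missing from 9 windows, 8 of which held KO cisplatin peaks. Those 8 windows held 19 KO cisplatin peaks, 7 WT pemetrexed peaks and 3 WT cisplatin peaks. Over all chromosomes 31.7% of windows had a KO cisplatin but no KO pemetrexed peak, and on chromosome 22 this was 22.9%. No window of the chromosome had a KO pemetrexed peak without a KO cisplatin peak. Among the 8 windows with KO cisplatin but no KO pemetrexed peaks were windows 32 and 33 (46000001 to 48000000). They held 4 and 5 KO cisplatin peaks and 0 KO pemetrexed peaks, although windows 30 and 31 just before held 33 and 20 KO pemetrexed peaks. Window 28 (42000001 to 43000000) likewise held 4 KO cisplatin and 0 KO pemetrexed peaks, between windows with 26 and 12 KO pemetrexed peaks.

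Long empty stretches separated the occupied parts. From 31296461 to 33707330, 2.41 Mb held no peak of any list, and from 25400752 to 26721273, 1.32 Mb held none. Empty over 0.822 Mb was also the stretch from 46428678 to 47250706. The KO pemetrexed list alone had its longest gaps around these places. Its gap of 3.48 Mb (30650500 to 34134129) held 2 WT pemetrexed, 6 KO cisplatin and 2 WT cisplatin peaks. Its gap of 2.98 Mb (45601775 to 48584515) held 0 WT pemetrexed, 12 KO cisplatin and 2 WT cisplatin peaks. In the longest WT pemetrexed gap, 4.8 Mb from 39189636 to 43992177, there were 84 KO pemetrexed, 42 KO cisplatin and 11 WT cisplatin peaks.

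The first window of the covered arm was 1 of 5 with fewer KO than WT pemetrexed peaks. The others were windows 11, 12, 17 and 19, with 0 KO pemetrexed and 1 WT pemetrexed peak each. Window 1 (15000001 to 16000000) held 0 KO pemetrexed and 3 WT pemetrexed peaks, and 1 KO cisplatin and 1 WT cisplatin peak. The WT pemetrexed peaks lay within 10 kb of each other, at 15232115 to 15232712, 15234071 to 15234747 and 15241526 to 15241897. A KO cisplatin peak of 637 bp (15238130 to 15238767) sat between them without touching any. These were the largest number of WT pemetrexed peaks in any window of the chromosome.

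The covered span was cut in 3 equal parts of 11.4 Mb, ending at 26621098, at 38010080 and at the last covered position. In the distal part lay 165 of 352 KO pemetrexed peaks (46.9%, exact interval 41.6 to 52.2%) and 5 of 23 WT pemetrexed peaks (21.7%, 7.46 to 43.7%). The same part had 41.1% of the KO cisplatin peaks (81 of 197, 34.2 to 48.3%) and 50% of the WT cisplatin peaks (28 of 56, 36.3 to 63.7%). In the proximal part lay 72 KO pemetrexed peaks (20.5%), against 10 WT pemetrexed peaks (43.5%). It also had 48 KO cisplatin peaks (24.4%), against 14 WT cisplatin peaks (25%). With 23 WT pemetrexed peaks, the intervals of the KO pemetrexed and WT pemetrexed shares overlapped in each of the 3 parts. Such overlap does not decide whether the shares differ, and the difference was not tested.

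The KO over WT ratio after pemetrexed was 7.20 (interval 3.70 to 15.7) in the proximal part, 14.4 (7.06 to 34.1) in the middle part and 33 (13.9 to 103) in the distal part. These 3 ratios rest on 10, 8 and 5 WT pemetrexed peaks, and 3 of the 10 proximal ones lay within 10 kb of each other. The intervals of the 3 ratios overlap, which does not decide whether the ratios differ, and no test between parts was made. After cisplatin the ratios were 3.43 (1.86 to 6.73), 4.86 (2.71 to 9.35) and 2.89 (1.86 to 4.62). Wide KO pemetrexed peaks of 2 kb or more numbered 15 of 72 in the proximal, 25 of 115 in the middle and 49 of 165 in the distal part. These counts thus rise in part with the number of KO pemetrexed peaks in each part. The KO pemetrexed list covered 111, 192 and 327 kb in the 3 parts, while the KO cisplatin list covered 41.8, 62.1 and 74.1 kb. When peaks within 100 kb were joined, the distal share was 32.1% for KO pemetrexed and 26.3% for WT pemetrexed, for 1 of 3 equal parts. The ratios by part were not computed with joined peaks, so their rise along the arm holds for peaks counted singly.

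**Figure D4:**
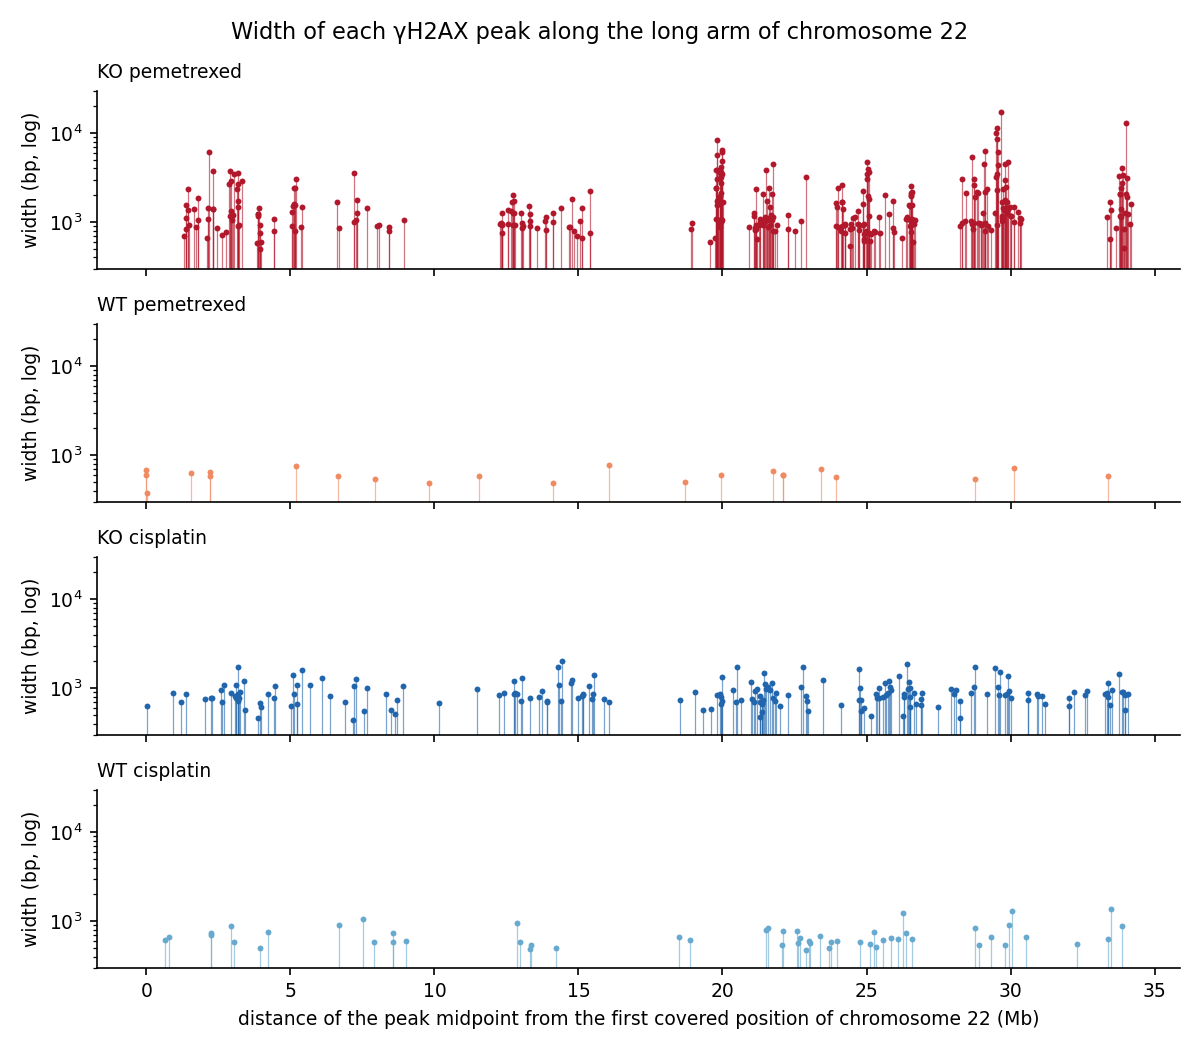
Width in bp (vertical log axis) of each peak against the distance of its midpoint from the first covered position of the chromosome, in Mb, for the 4 lists. The widest KO pemetrexed peaks, up to 17262 bp, stand in a few narrow places, while no peak of the KO cisplatin list exceeds 2024 bp.

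Peaks lay closest together in the KO pemetrexed list. The median gap of a peak to its nearest neighbour in the same list was 7.22 kb for KO pemetrexed and 1244 kb for WT pemetrexed, and 32.0 kb for KO cisplatin and 113 kb for WT cisplatin. Within 100 kb of another peak of its list lay 95.2% of the KO pemetrexed peaks (exact interval 92.4 to 97.2%) and 30.4% of the WT pemetrexed peaks (13.2 to 52.9%). The shares were 75.6% (69.0 to 81.5%) for KO cisplatin and 37.5% (24.9 to 51.5%) for WT cisplatin. A longer list has closer peaks whatever its pattern. Over all chromosomes the shares were 88.3, 13, 57 and 30% in the same order of lists.

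Chains of KO pemetrexed peaks, each at most 100 kb from the next, formed 10 stretches of at least 10 peaks, which took up 4.56 Mb or 13.4% of the span. They held 63.4% of the KO pemetrexed peaks of the chromosome (223 of 352), a description that follows from how the stretches were drawn. Over all chromosomes the share was 55.1% (2906 of 5272). Chromosomes 16, 17 and 19 had 75.8, 66.5 and 82.2% of their KO pemetrexed peaks in such stretches, and chromosome 21 had 41.7%. Peaks of the lists that did not define the stretches were also found there. The stretches held 21.7% of the WT pemetrexed peaks (5 of 23, exact interval 7.46 to 43.7%), 32.5% of the KO cisplatin peaks (64 of 197, 26.0 to 39.5%) and 26.8% of the WT cisplatin peaks (15 of 56, 15.8 to 40.3%). Of the 3, the KO cisplatin and WT cisplatin intervals lay above the 13.4% of the span, and the WT pemetrexed interval included it. The lists left some long stretches empty in common, so a share above that of the span does not single out these places. The same shares over all chromosomes were not computed. KO pemetrexed peaks inside the stretches had a median width of 1406 bp (interquartile range 958 to 2424) and those outside 1036 bp (867 to 1394), with 77 of 223 and 12 of 129 at 2 kb or more. The stretches were drawn from these same peaks, and wider peaks leave shorter gaps. The difference in width therefore follows in part from how the stretches were drawn.

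The most densely marked stretch ran over 258 kb from 34980132 to 35237961. Its 34 KO pemetrexed peaks were 664 to 8429 bp wide, with a median gap of 2346 bp between neighbours and 33.2 kb at most. They covered 94.1 kb, or 36.5% of the stretch, which was the highest share among the 109 such stretches of KO pemetrexed peaks on any chromosome (median 9.0%). By number of peaks it ranked 22 among the 109. The same 258 kb held 1 WT pemetrexed peak, 6 KO cisplatin peaks and 0 WT cisplatin peaks. Its WT pemetrexed peak (35168389 to 35168986) lay on a KO pemetrexed peak.

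On chromosome 22 the stretch with the most covered bases, which ranked 15 among the 109 on any chromosome, ran over 659 kb from 44678187 to 45337514. Its 33 KO pemetrexed peaks covered 109 kb, or 16.6%, and included 4 of the 5 widest peaks of the chromosome. It also held 1 WT pemetrexed, 9 KO cisplatin and 3 WT cisplatin peaks. The stretch at the end of the arm (49013124 to 49399063) had 20 KO pemetrexed peaks over 386 kb with 13% covered, and 0 WT pemetrexed, 5 KO cisplatin and 1 WT cisplatin peaks. These 3 stretches had the highest covered shares of the 10.

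A longer and looser stretch was also dense in KO cisplatin peaks. From 36314911 to 37128182, 813 kb held 32 KO pemetrexed and 19 KO cisplatin peaks, 1 WT pemetrexed peak and 2 WT cisplatin peaks, with 5.37% covered by KO pemetrexed peaks. KO cisplatin peaks formed their one chain of 10 or more here as well, 21 peaks over 844 kb from 36233617 to 37077393. By contrast the stretches from 39159668 to 39501484 and from 39646982 to 39985513 held 14 and 10 KO pemetrexed peaks but 1 and 2 KO cisplatin peaks. In the proximal part 1 stretch reached 10 peaks, from 18113347 to 18543463, with 16 KO pemetrexed, 0 WT pemetrexed, 9 KO cisplatin and 2 WT cisplatin peaks.

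**Figure D5:**
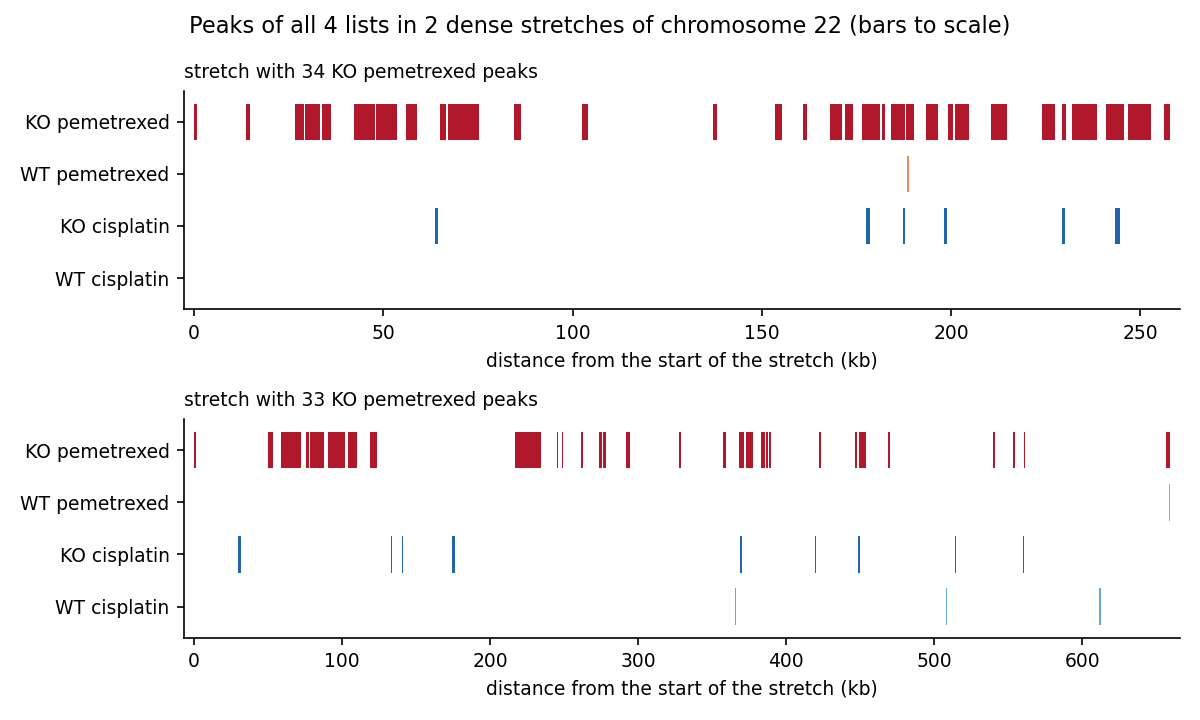
Peaks of the 4 lists (rows, bars to scale) by distance in kb from the start of the 258 kb stretch with 34 KO pemetrexed peaks (top) and the 659 kb stretch with 33 (bottom). KO pemetrexed peaks follow each other closely and cover 36.5% and 16.6% of the stretches, with 6 and 9 KO cisplatin peaks among them.

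Peaks of different lists rarely touched, here and over all chromosomes, where 0.241 to 7.32% of a list met a second list. The 628 peaks made up 593 separate regions, of which 559 had a peak of 1 list, 33 of 2 lists and 1 of 3 lists. No region had all 4, and regions were not counted this way over all chromosomes. The region in 3 lists spanned 2486 bp from 44006560 to 44009046, with KO pemetrexed, KO cisplatin and WT cisplatin peaks. The KO cisplatin peak there, 1733 bp wide, was among the 5 widest of its list.

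Between genotypes after pemetrexed, 2 of 352 KO pemetrexed peaks (0.568%) met 2 of 23 WT pemetrexed peaks (8.70%, exact interval 1.07 to 28%). Over all chromosomes the shares were 0.247% and 1.42%. The 2 regions were 35168186 to 35170297 and 45336041 to 45337514, each within a stretch of many KO pemetrexed peaks. After cisplatin, 1 of 197 KO peaks (0.508%) met 1 of 56 WT peaks (1.79%, 0.0452 to 9.55%), with 0.701% and 1.77% over all chromosomes. The median distance from a WT peak to the nearest KO peak of the same drug was 51.1 kb for pemetrexed and 43.2 kb for cisplatin.

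The pair of KO lists shared the largest number of places. They are also the longest lists on the chromosome and those with the most covered bases. In KO cells 29 of 352 pemetrexed peaks (8.24%, exact interval 5.59 to 11.6%) met 29 of 197 cisplatin peaks (14.7%, 10.1 to 20.5%), where 6.24% and 7.32% did over all chromosomes. The number of KO cisplatin peaks counted as shared depended on the definition, with 10 at a reciprocal overlap of 50% and 75 within 10 kb of a KO pemetrexed peak. Chromosome 22 holds more KO pemetrexed bases per Mb to meet than most chromosomes, and its part in the share was not tested. The 29 KO pemetrexed peaks that met a KO cisplatin peak had a median width of 1486 bp (interquartile range 1068 to 3036), against 1168 bp (920 to 1947) for the other 323. A wide peak meets others more easily. The KO cisplatin peaks had medians of 861 bp where they met a KO pemetrexed peak and 849 bp where they did not. The longest of these shared regions were 5269 bp (45126548 to 45131817), 4856 bp (35220940 to 35225796), 3861 bp (36752616 to 36756477) and 3591 bp (35156616 to 35160207).

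In WT cells 0 of 23 pemetrexed peaks met any of 56 cisplatin peaks, which allows shares of up to 13% and 5.36%. Over all chromosomes 1.09% of WT pemetrexed and 0.554% of WT cisplatin peaks did, so the absence is within what the small numbers allow. Across genotype and drug, 4 of 352 KO pemetrexed peaks (1.14%) met 4 of 56 WT cisplatin peaks (7.14%, 1.98 to 17.3%), against 1.37% and 3.99% over all chromosomes. No KO cisplatin peak met a WT pemetrexed peak (0 of 197 and 0 of 23, with 0.241% and 1.20% over all chromosomes), although 6 of the 23 lay within 10 kb of one. The control library behind each list is not known, and lists may share one.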

How the data were processed

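γH2AX ChIP-seq was done on 6 libraries of DLD1 cells, and 4 peak lists were analysed, 1 for each drug-treated library. Per the submitters' processing notes, Bowtie (no version) and MACS 1.4 were used, with build hg18. The sources used here state no control library, calling threshold or filter. Per the file headers, the deposited peak lists hold a chromosome, a start and an end, with no score, fold or read count. Depth is therefore unknown. Deeper sequencing or another control can change the number and width of peaks.

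Members were all peaks on chromosome 22, with 0 on its unplaced contigs. The members, the windows and the regions to name were chosen with earlier results of these data known. The limit of 5 peaks per window and the stretches of 10 peaks were chosen after seeing these values. Named were the 5 widest peaks per list, the 5 fullest windows for KO pemetrexed and over the 4 lists, the regions in 3 lists, the longest in 2, and the 3 longest empty stretches. Other windows, gaps and peaks named were chosen after their values were seen. Positions are as listed. Whether starts count from 0 or 1 is not known.

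Ratios of peak numbers have exact (Clopper-Pearson) 95% intervals, shares exact binomial intervals, and ratios of ratios conditional exact intervals (scipy 1.17.1, pandas 2.3.3). With 1 library per group no test between groups was made, and the floor of a count of 0 was set at 3 counts. Peaks met where they overlapped by at least 1 bp. Alternatives joined neighbouring peaks, left out peaks under 600 bp or window 22, shifted the windows by 500 kb, or changed the overlap. The counting steps were tested on simulated data. No gene was assigned and no sequence printed, since the gene table at hand was for another build.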

Additional observations from a re-analysis of the deposited data

Results flagged for a closer look

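On chromosome 22 the KO over WT ratio after pemetrexed was 4.34 times that after cisplatin (95% exact interval 2.54 to 7.63), a difference between drugs in the same contrast of genotypes. The same factor was 2.26 over all chromosomes, 3.74 on chromosome 16, 8.42 on chromosome 17 and 9.01 on chromosome 19. In KO cells pemetrexed gave 352 peaks and cisplatin 197, while in WT cells pemetrexed gave 23 and cisplatin 56. The interval covers counting error between single lists. It included 1 once peaks within 100 kb were joined (1.5, 0.770 to 3.01), and the factor was 7.47 (3.43 to 18.1) when peaks under 600 bp were left out. The 600 bp cut left 347 of 352 KO pemetrexed peaks but 9 of 23 WT pemetrexed peaks. A read depth that differs between the libraries cannot be told apart from genotype and drug.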

How the results depend on the processing

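For 25 results 76 alternatives were computed. Of these 52 kept the direction and stayed within their interval or, for covered bases, windows and overlaps, within 1.5 times, 23 moved and 1 reversed. The alternatives of the ratio of ratios were chosen after seeing the data. With peaks within 100 kb joined, the KO over WT ratio was 2.95 for pemetrexed and 1.96 for cisplatin, and the ratio of ratios 1.5. The pemetrexed over cisplatin ratio in KO was 0.636, a reversal, and 1.24 with peaks within 10 kb joined. The share on chromosome 22 was 4.65% for KO pemetrexed and 3.15% for KO cisplatin with 100 kb joining, and the distal share of KO pemetrexed peaks 32.1%. Joining itself lowers the numbers of the denser list. With peaks of at least 600 bp alone (347 KO and 9 WT pemetrexed peaks), the KO over WT ratio was 38.6 for pemetrexed and 5.14 for cisplatin, covered bases gave 102 for pemetrexed, and WT pemetrexed peaks occupied 9 windows. The 600 bp cut itself removes more of the lists with narrower peaks. Leaving out window 22 moved no ratio of peak numbers out of its interval. Overlaps depended on their definition. WT pemetrexed peaks on KO pemetrexed peaks numbered 0 at 50% reciprocal overlap, 4 within 10 kb and 1 at 600 bp or more. WT cisplatin on KO cisplatin numbered 0 at 50% and 11 within 10 kb. KO cisplatin on KO pemetrexed numbered 10 and 75. WT cisplatin on KO pemetrexed numbered 1 and 14, and 2 at 600 bp or more. Within 10 kb, 2 WT cisplatin peaks lay by a WT pemetrexed peak and 6 WT pemetrexed peaks by a KO cisplatin peak. No paired analysis was possible because there was a single library in each group. Stricter thresholds could not be applied because the lists hold no score.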
